A study of Mus musculus with 12 samples.

Results

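Hippocampal RNA of 5xFAD mice given TPPU was compared with that of 5xFAD mice given vehicle, 4 mice in each group and 8 of the 12 mice of the study. The first group drank TPPU at 3 mg/kg over 2.5 months, beginning at the age of 2 months. The second group drank the vehicle alone, 1% polyethylene glycol 400, which the TPPU water also contained. Another group of 4 non-transgenic littermates on vehicle shared the linear model, and its values are given for orientation. All 8 mice compared here carried the 5xFAD transgenes. These encode human amyloid precursor protein and presenilin 1 with familial Alzheimer's disease mutations, are driven in neurons by the Thy1 promoter, and lead to plaques early in life. The labels describe males and give no group of non-transgenic mice on TPPU, so the effect of TPPU without the transgenes was not measured. Nothing in the labels says how the mice were assigned, housed or processed. The p-values of limma rest on a spread pooled over all 12 mice, including the non-transgenic mice. RNA was read with the nCounter Mouse Neuroinflammation panel of 770 transcripts, in which barcoded probes are hybridised to RNA and counted without amplification. The deposited table held 756 genes. The 695 with a mean of at least 20 normalized counts over the 12 mice were tested, and the other 61 were not.

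Soluble epoxide hydrolase, encoded by Ephx2, turns epoxy fatty acids made by cytochrome P450 enzymes into diols, and TPPU is an inhibitor of that enzyme. Epoxy fatty acids are lipid mediators known for dampening inflammatory signalling, while prostaglandins and leukotrienes are made from the same precursors by other enzymes. In 5xFAD brain, microglia gather at plaques and take on a state marked by Trem2, Tyrobp, Apoe, Cst7 and Clec7a, with complement and interferon-induced genes raised as well. Ephx2 and Ephx1 were not analysed here, so the level of the drug's target is not given.

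At an adjusted p under 0.05, limma called 0 of 695 genes higher and 0 lower in TPPU mice than in 5xFAD vehicle mice (0% in each direction). At an unadjusted p under 0.05, 119 genes were lower in TPPU mice (17.1% of those tested) and 7 were higher (1.01%). The lowest adjusted p was 0.117 and was shared by 4 genes, C1qc, Irf7 and Ctse among them. The 119 lower genes included 7 of 9 tested complement genes, 10 of 12 myeloid identity genes, 16 of 27 Fc receptor and phagocytosis genes, 9 of 17 plaque-associated microglial genes and 12 of 24 interferon response genes. Some genes stand in several of these lists, so the counts cannot be added. In 30 genes all 4 TPPU mice lay below all 4 5xFAD vehicle mice (4.32%), and in 4 genes all lay above (0.576%). The median log2 change over all tested genes was -0.12, with 489 estimates (70.4%) below 0.

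**Figure D1:**
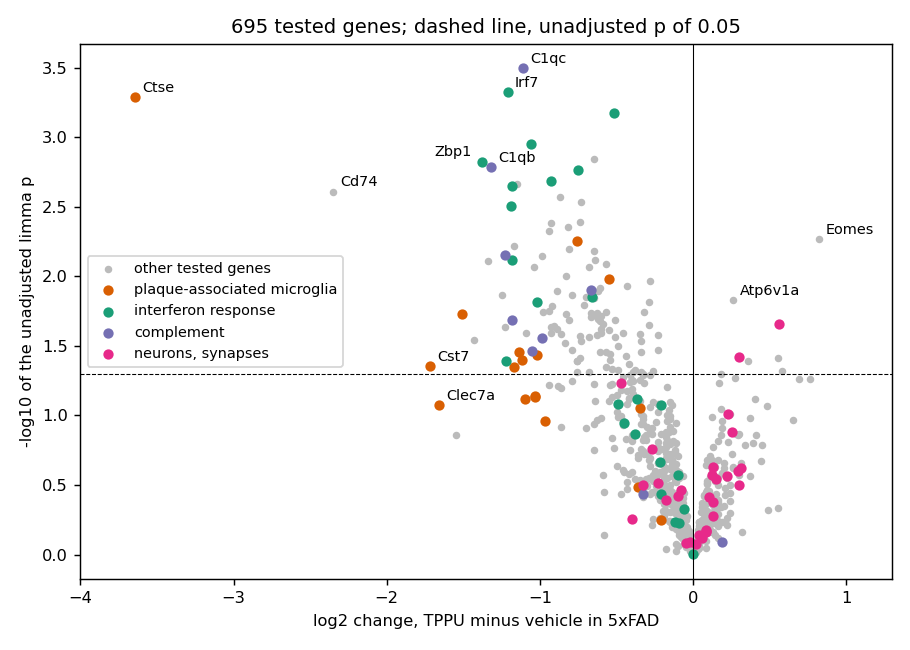
Log2 change of TPPU minus vehicle in 5xFAD hippocampus (horizontal axis) against -log10 of limma's unadjusted p (vertical axis) for the 695 tested genes, with members of 4 lists coloured. C1qc stands highest on the vertical axis and Ctse farthest to the left, at a log2 change of -3.64.

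The counts depended on single mice. Without TPPU mouse 3, limma called 39 genes lower (5.61%) and 0 higher, with 149 lower at an unadjusted p under 0.05 (21.4%). Without TPPU mouse 2 it called 1 gene lower, C1qc (log2 change -0.83, adjusted p = 0.00948), and only 54 were lower at an unadjusted p under 0.05 (7.77%). Without 5xFAD vehicle mouse 2 the call was Ifitm2 (-0.94, adjusted p = 0.00684), an interferon-induced membrane protein that stands outside the naming rule and was chosen after its values were seen. Without 5xFAD vehicle mouse 3 no gene was called and 57 were lower at an unadjusted p under 0.05 (8.2%). Each of the remaining 8 fits without 1 mouse called 0 genes in either direction. With only the 5xFAD mice in the model, 0 genes were called, and 90 were lower and 10 higher at an unadjusted p under 0.05. The lower genes then included 5 of 17 plaque-associated, 4 of 14 homeostatic, 9 of 12 myeloid identity and 5 of 9 complement genes. They also included 10 of 27 Fc receptor and phagocytosis, 6 of 13 SLAM and inhibitory receptor and 11 of 24 interferon genes.

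**Figure D2:**
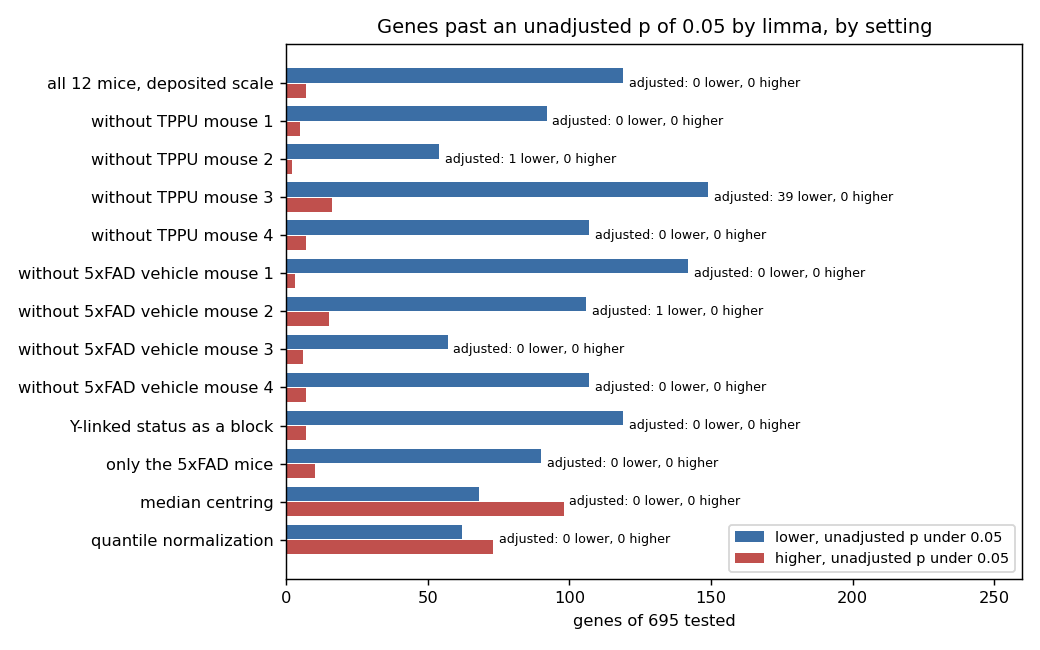
Number of tested genes lower (blue) or higher (red) in TPPU mice at an unadjusted p under 0.05 by limma, for each setting down the page, with the counts at an adjusted p under 0.05 written beside the bars. The blue bar is 119 genes long with all mice, 149 without TPPU mouse 3 and 54 without TPPU mouse 2.

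The counts also depended on how the arrays were scaled. The array median was 8.51 ± 0.118 log2 normalized counts in TPPU mice and 8.71 ± 0.148 in 5xFAD vehicle mice (SD, n = 4 each, exact two-sided permutation p = 0.0857, where 0.0286 is the smallest possible). The 2 groups' medians overlapped. After centring each array on its median, 68 genes were lower (9.78%) and 98 higher (14.1%) at an unadjusted p under 0.05, the median change was 0.08, and 37.7% of estimates lay below 0. After quantile normalization 62 were lower (8.92%) and 73 higher (10.5%). At an adjusted p under 0.05 both scalings called 0 genes in each direction. Total probe counts ran from 1050334 to 1314362 over the 12 mice. Uty and Kdm5d, which are Y-linked and were named after their values were seen, were high in TPPU mice 1 and 4, 5xFAD vehicle mice 3 and 4 and non-transgenic mice 1 and 4, and low in the other 6 mice, against the male label of those 6. Ttr, the choroid plexus gene for transthyretin, was at 135 to 276 in TPPU mice and at 82.8 to 121 in 3 of the 5xFAD vehicle mice, against 4270 in 5xFAD vehicle mouse 1. Limma again called 0 genes in each direction when Y-linked status was a block, and when 5xFAD vehicle mouse 1 and non-transgenic mouse 4 (Ttr 16461) were left out.

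The interferon response list, of genes that sense viral nucleic acid or are induced by interferon, had 24 tested members. Their median log2 change was -0.51, beside -0.12 over all tested genes, and 24 of 24 estimates lay at or below 0. After median centring the list median was -0.31, beside 0.08 over all genes, and after quantile normalization it was -0.26, beside 0.07. At an unadjusted p under 0.05, 12 were lower in TPPU mice and 0 higher, or 10 and 0 after either scaling. In 8 of the 24 all TPPU mice lay below all 5xFAD vehicle mice, beside 4.32% of all tested genes. Siglec1 stood under the minimum and was not tested.

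Irf7, the transcription factor that amplifies the type I interferon response, stood at 50.1, 24.5, 42.7 and 30.9 normalized counts in TPPU mice 1 to 4, against 100, 100, 72.8 and 66.9 in 5xFAD vehicle mice 1 to 4 and 46.5 ± 9.9 in non-transgenic mice (SD, n = 4). Every TPPU mouse was below every 5xFAD vehicle mouse, and the TPPU values overlapped those of non-transgenic mice, which ran from 32.8 to 54. The log2 change of TPPU minus vehicle was -1.21 (SE 0.25, 95% interval -1.76 to -0.65), a ratio of 0.433, with an adjusted p of 0.117.

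Zbp1, a sensor of left-handed nucleic acid, stood at 26.6, 20.3, 32.8 and 29.9 in TPPU mice, against 92.7, 81.1, 49.7 and 71.9 in 5xFAD vehicle mice. Slfn8, a Schlafen family gene induced by interferon, stood at 36.2, 27.7, 52.5 and 53.5 in TPPU mice, against 83.2, 90.3, 82.8 and 90.8 in 5xFAD vehicle mice. In both genes the groups were apart, with log2 changes of -1.38 (SE 0.34) and -1.06 (SE 0.25) and an adjusted p of 0.13 each. These counts are low. In the 5xFAD mice with low Y-linked counts Uty and Kdm5d read 14.2 to 33.5. The TPPU values of Zbp1 lie within that range, as do those of TPPU mice 2 and 4 for Irf7 and of TPPU mouse 2 for Slfn8. How far background sets the ratios of such genes was not tested.

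Genes for cytosolic RNA sensors had estimates below 0. Ifih1, which encodes the long-RNA sensor MDA5, stood at 143, 107, 110 and 120 in TPPU mice, against 267, 186, 237 and 233 in 5xFAD vehicle mice (log2 change -0.93, SE 0.24, adjusted p = 0.13), with no overlap. Ddx58, which encodes the sensor RIG-I, stood at 93.8, 80, 150 and 88.5 in TPPU mice, against 164, 170, 195 and 149 in 5xFAD vehicle mice (-0.75, SE 0.19, adjusted p = 0.13). TPPU mouse 3, at 150, lay just above 5xFAD vehicle mouse 4, at 149. Cxcl10, a chemokine that draws T cells, stood at 20.2, 21.3, 66.7 and 27.8 in TPPU mice, against 22.7, 66.9, 111 and 148 in 5xFAD vehicle mice (-1.22, SE 0.53, adjusted p = 0.251). Its groups overlapped through TPPU mouse 3 and 5xFAD vehicle mouse 1. The other 3 TPPU mice and that vehicle mouse read within the range of the Y-linked probes given above, and how far background sets the ratio was not tested.

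The promoters of 4 of these genes are shown because each holds the core of the interferon-stimulated response element, which is GAAA, any 2 bases and GAAA again, on either strand. They run 250 bases before to 50 bases after the annotated start, from RefSeq on GRCm38.p6, and capitals mark the match. The windows are chr2:62646206-62646505 for Ifih1, chr4:40239776-40240075 for Ddx58, chr11:83020761-83021060 for Slfn8 and chr5:92348840-92349139 for Cxcl10, all on the minus strand and printed in the direction of transcription.
Ifih1: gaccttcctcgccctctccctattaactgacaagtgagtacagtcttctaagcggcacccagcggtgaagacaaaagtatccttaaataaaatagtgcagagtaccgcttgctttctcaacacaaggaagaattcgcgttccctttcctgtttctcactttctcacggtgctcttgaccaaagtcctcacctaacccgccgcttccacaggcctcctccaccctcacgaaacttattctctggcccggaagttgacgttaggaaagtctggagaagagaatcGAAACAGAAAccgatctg
Ddx58: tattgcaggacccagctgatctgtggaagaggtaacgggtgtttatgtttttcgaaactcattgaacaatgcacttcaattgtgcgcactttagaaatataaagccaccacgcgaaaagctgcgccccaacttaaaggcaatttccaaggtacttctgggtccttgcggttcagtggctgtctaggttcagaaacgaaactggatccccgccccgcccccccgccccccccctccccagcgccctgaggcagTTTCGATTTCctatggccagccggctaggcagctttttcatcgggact
Slfn8: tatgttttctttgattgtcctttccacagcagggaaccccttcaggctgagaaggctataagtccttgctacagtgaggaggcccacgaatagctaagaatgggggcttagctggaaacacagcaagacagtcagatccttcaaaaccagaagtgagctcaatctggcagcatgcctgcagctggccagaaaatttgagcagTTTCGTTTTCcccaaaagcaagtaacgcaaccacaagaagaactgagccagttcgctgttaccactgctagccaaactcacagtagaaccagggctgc
Cxcl10: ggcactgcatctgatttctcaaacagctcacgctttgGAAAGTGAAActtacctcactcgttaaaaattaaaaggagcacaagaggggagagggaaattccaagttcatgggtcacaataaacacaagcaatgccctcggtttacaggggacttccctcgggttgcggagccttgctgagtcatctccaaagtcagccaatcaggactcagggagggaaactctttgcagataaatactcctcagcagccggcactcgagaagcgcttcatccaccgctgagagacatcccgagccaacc
The match begins 213 bases before the start in Cxcl10 and 48 before it in Slfn8, and after the start, at base 33 of the transcript in Ifih1 and base 3 in Ddx58. Among the 19 tested interferon genes with a promoter in the RefSeq table, 10 held the motif (52.6%), beside 42 of 547 tested panel genes (7.68%) and 3.99% of all 27025 genes of that table. Irf7 held none in its window, and Zbp1 had no entry. A match describes letters and not a bound site.

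Complement genes had a median log2 change of -1.05 over 9 tested members, with 7 lower at an unadjusted p under 0.05 and 0 higher. In 2 of the 9 all TPPU mice lay below all 5xFAD vehicle mice, beside 4.32% of all tested genes. The median was -0.57, with 5 lower, without TPPU mouse 2, and -0.8, with 4 lower, without 5xFAD vehicle mouse 3. C1qa, C1qb and C1qc encode the 3 chains of C1q, which starts the classical pathway and tags synapses and debris. C1qc stood at 2897, 1467, 3360 and 3268 normalized counts in TPPU mice, against 5698, 5150, 5995 and 5765 in 5xFAD vehicle mice and 1267 ± 188 in non-transgenic mice. The vehicle mice were tightly grouped and all TPPU mice lay below them, mouse 2 lowest. The log2 change was -1.11 (SE 0.22, 95% interval -1.59 to -0.63), a ratio of 0.463, with an adjusted p of 0.117.

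C1qb stood at 2861, 924, 2650 and 1494 in TPPU mice, against 2994, 4935, 4473 and 6121 in 5xFAD vehicle mice (log2 change -1.32, SE 0.32, adjusted p = 0.13), again with no overlap, though TPPU mouse 1 came close to 5xFAD vehicle mouse 1. C1qa stood at 2334, 941, 4148 and 2847 in TPPU mice, against 2854, 4613, 7556 and 4021 in 5xFAD vehicle mice (-0.99, SE 0.39, adjusted p = 0.218), and there the groups overlapped. The promoters of C1qb and C1qc are shown because both hold the letters GAGGAA on 1 of the strands, the core bound by PU.1, the master factor of myeloid cells. They lie at chr4:136886151-136886450 and chr4:136892865-136893164 of GRCm38.p6, from RefSeq, minus strand, with the match in capitals.
C1qb: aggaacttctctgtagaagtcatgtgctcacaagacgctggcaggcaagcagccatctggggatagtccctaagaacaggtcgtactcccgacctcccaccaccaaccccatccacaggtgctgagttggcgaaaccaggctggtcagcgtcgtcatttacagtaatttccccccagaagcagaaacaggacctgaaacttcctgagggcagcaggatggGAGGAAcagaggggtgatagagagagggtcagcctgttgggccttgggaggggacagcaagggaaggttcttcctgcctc
C1qc: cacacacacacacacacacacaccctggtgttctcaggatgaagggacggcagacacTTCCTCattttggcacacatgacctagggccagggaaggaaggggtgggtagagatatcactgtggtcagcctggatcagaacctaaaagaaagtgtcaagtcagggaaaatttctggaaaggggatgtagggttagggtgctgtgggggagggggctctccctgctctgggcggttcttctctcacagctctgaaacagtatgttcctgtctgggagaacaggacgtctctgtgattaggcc
This short motif is common. It stood in 3 of 6 tested complement genes with a promoter entry (50%), 9 of 13 plaque-associated genes (69.2%), 2 of 9 homeostatic genes (22.2%), 5 of 19 interferon genes (26.3%), 40% of tested panel genes and 31.3% of all genes of the table.

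Of the other complement members, Serping1, the inhibitor of C1, stood at 150, 88.6, 218 and 125 in TPPU mice, against 316, 164, 529 and 407 in 5xFAD vehicle mice (log2 change -1.23, SE 0.38, adjusted p = 0.175). C3ar1, the receptor for the C3a fragment, averaged 247 ± 141 in TPPU mice and 459 ± 189 in 5xFAD vehicle mice (-1.05, SE 0.44), and C4a averaged 989 ± 581 in TPPU mice and 1974 ± 688 in 5xFAD vehicle mice (-1.18, SE 0.44). C4a is nearly identical to its paralog C4b, and whether its probe tells them apart is not stated in the labels. C3, the central component, stood at 105, 19.2, 353 and 86.5 in TPPU mice, against 33.1, 56.8, 135 and 146 in 5xFAD vehicle mice. Its estimate of 0.19 (SE 0.8) turned to -0.47 without TPPU mouse 3 and to -0.21 without 5xFAD vehicle mouse 1, so no direction can be given. C6 was under the minimum.

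Plaque-associated microglial genes had 17 tested members with a median log2 change of -1.03. All 17 estimates were below 0, 9 at an unadjusted p under 0.05. In 0 of 17 did all TPPU mice lie below all 5xFAD vehicle mice, beside 4.32% of all tested genes. The list turned on single mice. Without TPPU mouse 2 the median was -0.56 with 3 lower, without 5xFAD vehicle mouse 3 it was -0.79 with 3 lower, and without TPPU mouse 3 it was -1.44 with 15 lower. With TPPU mouse 1 or 5xFAD vehicle mouse 2 left out, 4 were lower. With all mice, 6 were lower after median centring (median -0.83) and 6 after quantile normalization (median -0.82). Ctse, an aspartic protease of myeloid cells, had the lowest estimate of all tested genes. It stood at 36.2, 27.7, 479 and 43.2 in TPPU mice, against 463, 1237, 1780 and 540 in 5xFAD vehicle mice and 28.9 ± 7.34 in non-transgenic mice. TPPU mice 1, 2 and 4 sat near the non-transgenic level, while mouse 3 was within the range of the vehicle mice. The log2 change was -3.64 (SE 0.77, 95% interval -5.33 to -1.96), a ratio of 0.08 with an interval of 0.0249 to 0.257 and an adjusted p of 0.117. Without TPPU mouse 3 it was -4.58 (adjusted p = 0.000324). TPPU mice 1, 2 and 4 read in or just above the range of 14.2 to 33.5 of the Y-linked probes in mice with low Y-linked counts, and how far background sets the ratio was not tested.

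Trem2, the lipid-sensing receptor of microglia, stood at 991, 346, 2240 and 1449 in TPPU mice, against 1413, 2559, 3647 and 2003 in 5xFAD vehicle mice and 287 ± 63.6 in non-transgenic mice (log2 change of TPPU minus vehicle -1.14, SE 0.48, adjusted p = 0.241). Its adaptor Tyrobp stood at 2279, 626, 4591 and 3119 in TPPU mice, against 2577, 5491, 8726 and 4211 in 5xFAD vehicle mice (-1.17, SE 0.52, adjusted p = 0.267). In both genes TPPU mouse 2 was near the non-transgenic mice and TPPU mouse 3 was above 2 of the vehicle mice. Without 1 mouse the estimates ran from -1.52 to -0.62 for Trem2 and from -1.54 to -0.58 for Tyrobp, with the first value of each without TPPU mouse 3 and the second without TPPU mouse 2. Apoe, the main lipid carrier of the brain, stood at 12315, 10648, 18602 and 13552 in TPPU mice, against 18769, 17506, 27032 and 17034 in 5xFAD vehicle mice (-0.55, SE 0.18, adjusted p = 0.204), with TPPU mouse 3 above 2 of the vehicle mice. Axl, a receptor for phosphatidylserine bridging proteins, averaged 655 ± 236 in TPPU mice and 1076 ± 219 in 5xFAD vehicle mice (-0.76, SE 0.23).

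Cst7, an inhibitor of cysteine proteases, stood at 100, 9.6, 194 and 139 in TPPU mice, against 108, 298, 451 and 234 in 5xFAD vehicle mice (log2 change -1.72, SE 0.77, adjusted p = 0.267). Clec7a, the receptor Dectin-1, stood at 124, 8.54, 306 and 146 in TPPU mice, against 168, 334, 658 and 144 in 5xFAD vehicle mice (-1.66, SE 0.88, adjusted p = 0.334). In TPPU mouse 2 both genes were no higher than in the highest non-transgenic mouse, and the groups overlapped. Itgax (CD11c), the lysosomal protein Cd68 and the chemokine Ccl3 had estimates of -0.97, -1.03 and -1.1, with adjusted p values of 0.377, 0.325 and 0.325. Without TPPU mouse 2 the estimates were -0.79 for Cst7, -0.61 for Clec7a, -0.53 for Itgax, -0.47 for Cd68 and -0.48 for Ccl3. Its readings of Cst7 and Clec7a lie under those of the Y-linked probes in mice with low Y-linked counts.

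**Figure D3:**
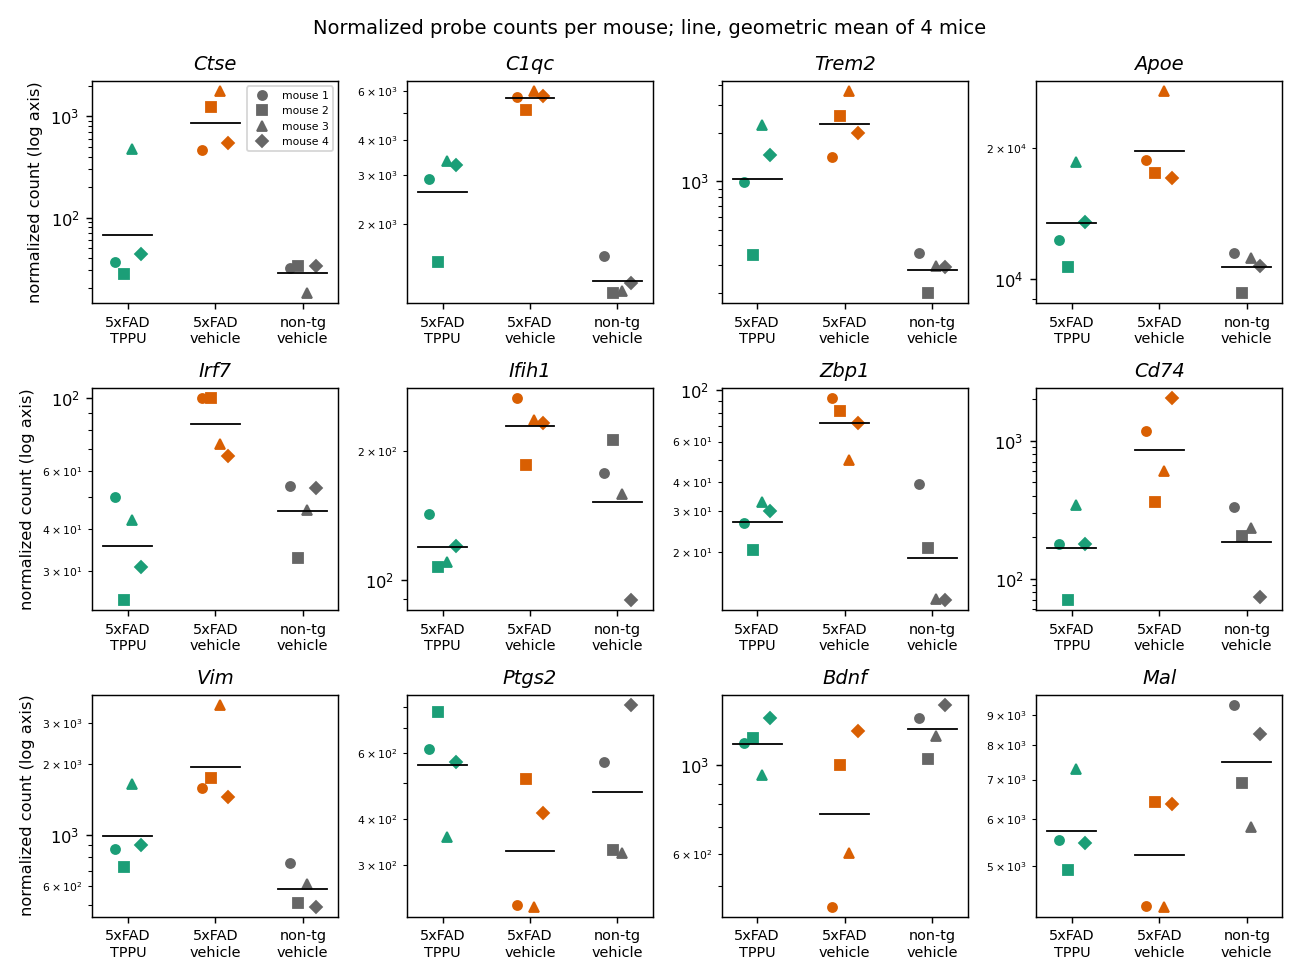
Normalized counts (log axis) of 12 genes in TPPU-treated 5xFAD (green), vehicle-treated 5xFAD (orange) and non-transgenic (grey) mice, with 1 marker shape per mouse number and a line at the geometric mean of 4 mice. The TPPU and 5xFAD vehicle mice do not overlap for C1qc, Irf7, Ifih1, Zbp1 and Cd74, and for Ctse TPPU mouse 3 stands apart from its group at 479.

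The list labelled homeostatic microglia had 14 tested members with a median of -0.49, 8 lower at an unadjusted p under 0.05 and 0 higher. Without TPPU mouse 2 it had 2 lower and a median of -0.31, without 5xFAD vehicle mouse 3 it had 3 and -0.37, and with TPPU mouse 1 or 5xFAD vehicle mouse 2 left out 4 were lower. With all mice, median centring gave 4 lower, 1 higher and a median of -0.29, and quantile normalization 5, 1 and -0.34. Csf1r, the receptor that keeps microglia alive, stood at 1753, 1075, 2501 and 1920 in TPPU mice, against 2244, 2718, 3470 and 2204 in 5xFAD vehicle mice (log2 change -0.59, SE 0.22, adjusted p = 0.217). The fractalkine receptor Cx3cr1 (-0.57), the purinergic receptor P2ry12 (-0.44), the surface protein Tmem119 (-0.29) and the bridging protein Pros1 (-0.65) had adjusted p values of 0.212 to 0.249. The summed counts of P2ry12, Tmem119, Cx3cr1 and Csf1r ran from 3670 to 7452 in TPPU mice, against 6257 to 9909 in 5xFAD vehicle mice and 3157 to 3626 in non-transgenic mice. For 5xFAD vehicle minus non-transgenic the list median was 0.88, with 11 of 14 members called at an adjusted p under 0.05. Over all tested genes 18.7% were called higher there and 0 lower. In such tissue RNA, fewer microglia and less RNA per microglial cell cannot be told apart.

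Of 12 tested myeloid identity genes, 10 were lower at an unadjusted p under 0.05, with a median of -0.77. This number was 4 without TPPU mouse 2, with a median of -0.54, and without 5xFAD vehicle mouse 3 it was 5, with a median of -0.7. With all mice it was 9 after median centring and 7 after quantile normalization. Dock2, which steers the actin cytoskeleton of leukocytes, stood at 129, 75.8, 186 and 136 in TPPU mice, against 202, 302, 278 and 195 in 5xFAD vehicle mice, without overlap (log2 change -0.93, SE 0.26, adjusted p = 0.16). Plcg2, a phospholipase downstream of Trem2, averaged 153 ± 44.6 in TPPU mice and 241 ± 42.4 in 5xFAD vehicle mice (-0.68, SE 0.22). The list of SLAM and inhibitory receptors had 9 of 13 tested members lower at an unadjusted p under 0.05 and a median of -0.76. It had 3 lower and a median of -0.54 without TPPU mouse 2, and with TPPU mouse 1 or 5xFAD vehicle mouse 3 left out 5 were lower. With all mice it had 7 lower after median centring and 5 after quantile normalization. Its 2 members with the smallest p were Lair1, a collagen receptor (-0.75, SE 0.22, adjusted p = 0.169), and Cd33, a sialic acid receptor (-0.65, SE 0.2, adjusted p = 0.175).

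The antigen presentation list had 7 tested members and a median of -0.68. In 3 of the 7 all TPPU mice lay below all 5xFAD vehicle mice, beside 4.32% of all tested genes. At an unadjusted p under 0.05, 4 were lower. This number was 2 without TPPU mouse 2, 2 without 5xFAD vehicle mouse 3, and 3 after median centring or quantile normalization. Cd74, the invariant chain of MHC class II, stood at 180, 70.4, 344 and 178 in TPPU mice, against 1180, 362, 609 and 2045 in 5xFAD vehicle mice and 211 ± 106 in non-transgenic mice. All TPPU mice lay below all 5xFAD vehicle mice, which themselves spread widely (log2 change -2.35, SE 0.61, adjusted p = 0.132). Psmb8, an immunoproteasome subunit, stood at 221, 141, 358 and 234 in TPPU mice, against 528, 399, 598 and 508 in 5xFAD vehicle mice, without overlap (-1.15, SE 0.29, adjusted p = 0.13). The Fc receptor and phagocytosis list overlaps with the lists above. The shared members lower at an unadjusted p under 0.05 include Ctse, Axl, Trem2, Tyrobp, Dock2, Plcg2, Vav1, Lyn, Pros1, Mertk and Ctss. The shared members Cd68 and Syk did not pass that threshold. In all, 16 of 27 tested members were lower at that threshold, with a list median of -0.67. This was 6 of 27 without TPPU mouse 2, with a median of -0.47, and also 6 without 5xFAD vehicle mouse 3, with a median of -0.55. It was 9 without TPPU mouse 1. With all mice it was 12 after median centring, with 1 higher, and 13 after quantile normalization, with 0 higher.

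Cytokine and inflammasome genes had 13 of 16 estimates below 0, beside 70.4% over all tested genes. Of 16 tested members 6 were lower at an unadjusted p under 0.05, 0 were higher, and the median was -0.36. After median centring 2 were lower and 1 higher, with a median of -0.16, beside 9.78% lower and 14.1% higher over all tested genes. After quantile normalization it was likewise 2 and 1, with a median of -0.07, beside 8.92% lower and 10.5% higher over all tested genes. On the deposited scale 3 were lower without TPPU mouse 2, and 3 without 5xFAD vehicle mouse 3. Tnfrsf1a, the main receptor for TNF, stood at 311, 226, 434 and 320 in TPPU mice, against 478, 478, 704 and 463 in 5xFAD vehicle mice, without overlap (log2 change -0.73, SE 0.2, adjusted p = 0.135). Il6ra, the interleukin-6 receptor, stood at 155, 134, 161 and 160 in TPPU mice, against 243, 170, 196 and 218 in 5xFAD vehicle mice, also apart (-0.43, SE 0.14, adjusted p = 0.212). Casp1, the inflammasome protease, averaged 87.7 ± 16.6 in TPPU mice and 153 ± 48.9 in 5xFAD vehicle mice (-0.76, adjusted p = 0.251), and its sensor Nlrp3 averaged 34.9 ± 14.9 in TPPU mice and 54.7 ± 3.01 in 5xFAD vehicle mice (-0.74, adjusted p = 0.217). Il1b, the cytokine matured by Casp1, averaged 36.6 ± 11.6 in TPPU mice and 49.9 ± 20.3 in 5xFAD vehicle mice (-0.4, adjusted p = 0.554). Tnf, Il1rn, Il1r2 and Pycard were under the minimum.

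Among chemokine genes 4 of 10 tested members were lower at an unadjusted p under 0.05 and the median was -0.51. The number lower was 2 when TPPU mouse 1, 2 or 4 or 5xFAD vehicle mouse 3 was left out. It was also 2 with only the 5xFAD mice, after median centring (1 higher) and after quantile normalization (0 higher). Ccl5, a T cell chemokine, stood at 13.9, 10.7, 21.9 and 10.3 in TPPU mice, against 50.1, 19.3, 23.2 and 44.9 in 5xFAD vehicle mice (log2 change -1.17, SE 0.35, adjusted p = 0.174). The TPPU values lie in or under the range of the Y-linked probes in 5xFAD mice with low Y-linked counts. Ccl2, a monocyte chemokine, averaged 36.6 ± 9.32 in TPPU mice and 56.5 ± 12.5 in 5xFAD vehicle mice (-0.62, SE 0.21). The Toll-like receptor and NF-kB list was near the panel as a whole, with 4 of 21 tested members lower at an unadjusted p under 0.05 and a median of -0.23 (-0.03 after median centring). The 2 with the smallest p were the kinase Ikbke (-0.87, SE 0.23, adjusted p = 0.134) and the endotoxin receptor Tlr4 (-0.57, SE 0.18, adjusted p = 0.175).

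**Figure D4:**
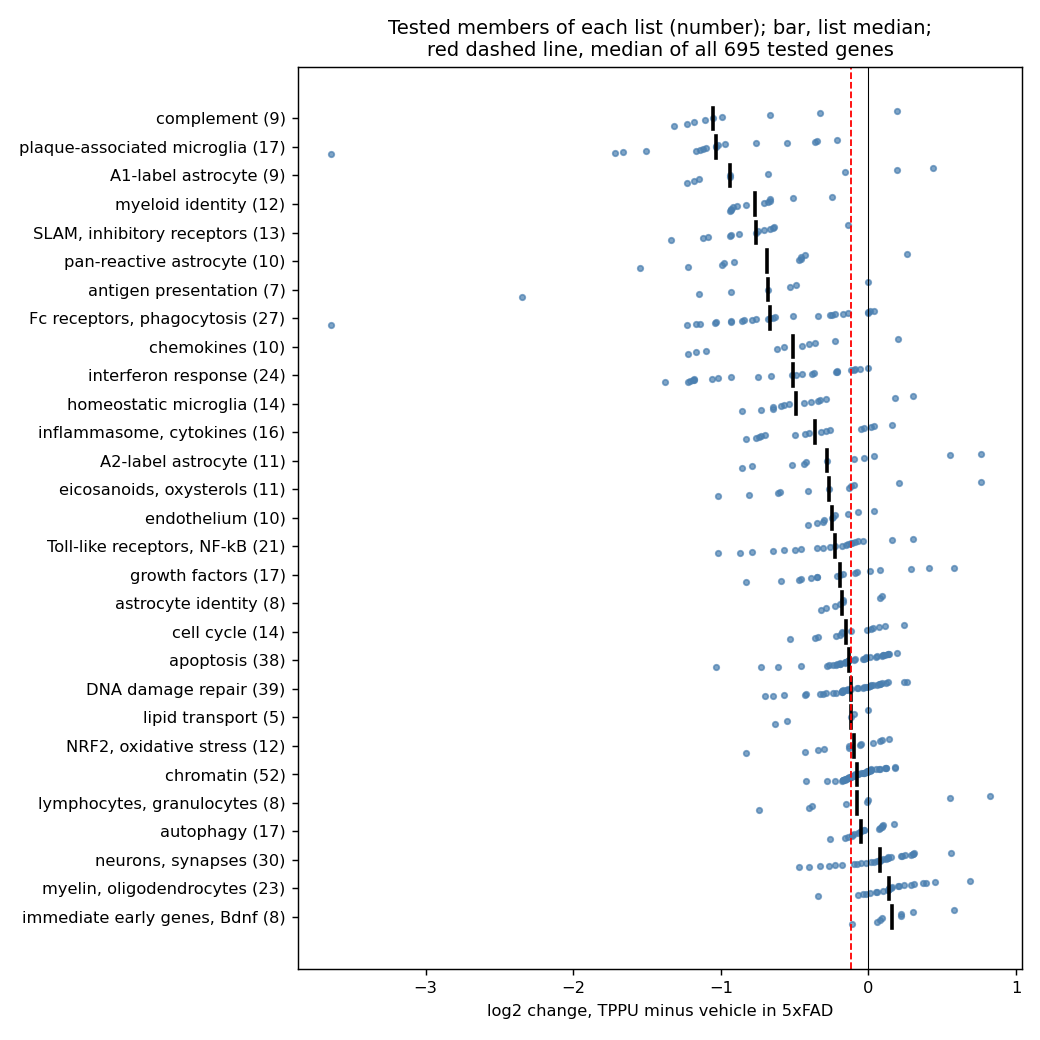
Log2 change of TPPU minus vehicle (horizontal axis) for the tested members of each list (down the page, number of members in brackets), with a black bar at the list median and a red dashed line at -0.12, the median of all tested genes. Complement stands at the top with a median of -1.05, and immediate early genes stand at the bottom with a median of 0.16.

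Astrocyte lists differed in their medians. The pan-reactive list had 4 of 10 tested members lower at an unadjusted p under 0.05 and a median of -0.69, and the A1 list 6 of 9 and -0.94. The A2 list had 0 of 11 and -0.28, and the astrocyte identity list 1 of 8 and -0.18, which became 0.02 after median centring. Over all tested genes 17.1% were lower. The pan-reactive count was 1 without TPPU mouse 2 and 1 without 5xFAD vehicle mouse 3. It was 3, with 1 higher, after median centring and 2, with 1 higher, after quantile normalization. The A1 count was 4 without either of those mice, left out singly, 5 after median centring and 4 after quantile normalization. Vim, an intermediate filament of reactive glia, stood at 867, 725, 1638 and 904 in TPPU mice, against 1582, 1745, 3596 and 1444 in 5xFAD vehicle mice and 593 ± 121 in non-transgenic mice (log2 change of TPPU minus vehicle -0.99, SE 0.3, adjusted p = 0.175). TPPU mouse 3 was the only TPPU mouse within the range of the vehicle mice. Osmr, the oncostatin M receptor, averaged 134 ± 66.7 in TPPU mice and 253 ± 104 in 5xFAD vehicle mice (-0.98, SE 0.36), and the proteoglycan Srgn averaged 348 ± 134 in TPPU mice and 648 ± 187 in 5xFAD vehicle mice (-0.94, SE 0.27). Slc1a3, the astrocytic glutamate transporter, stood at 8445, 8677, 8926 and 8003 in TPPU mice, against 10117, 10430, 12491 and 8989 in 5xFAD vehicle mice, without overlap (-0.29, SE 0.1, adjusted p = 0.212). Of the A1 members Psmb8, Serping1 and Srgn are also expressed by myeloid cells, and which cells gave the signal was not tested.

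The list of lipid mediator genes joins eicosanoid and oxysterol genes. At an unadjusted p under 0.05, 4 of 11 tested members were lower, with a median of -0.27. After median centring 1 was lower and 1 higher, with a median of -0.06. After quantile normalization 0 were lower and 1 higher, with a median of 0.07. On the deposited scale 1 was lower without 5xFAD vehicle mouse 3, and 2 were lower without TPPU mouse 2. Gpr183, the oxysterol receptor that guides immune cells, stood at 63.9, 42.7, 96.3 and 63.8 in TPPU mice, against 95.5, 124, 156 and 87.8 in 5xFAD vehicle mice (log2 change -0.81, SE 0.24, adjusted p = 0.175). Ch25h, which makes a precursor of its ligand, averaged 41.3 ± 19.3 in TPPU mice and 83.8 ± 37.4 in 5xFAD vehicle mice (-1.02, SE 0.43, adjusted p = 0.247). The prostaglandin D synthase Hpgds averaged 178 ± 50 in TPPU mice and 275 ± 84 in 5xFAD vehicle mice (-0.61). The prostaglandin E receptor Ptger3 averaged 32.7 ± 9.86 in TPPU mice and 49 ± 7.55 in 5xFAD vehicle mice (-0.6). Ptgs2, the inducible cyclooxygenase, ran the other way. It stood at 617, 777, 357 and 567 in TPPU mice, against 235, 513, 232 and 415 in 5xFAD vehicle mice and 508 ± 232 in non-transgenic mice (0.76, SE 0.36, 95% interval -0.02 to 1.55, adjusted p = 0.282). TPPU mouse 3 lay within the range of the vehicle mice, and in brain Ptgs2 is also a neuronal activity gene. Ptgs1 was not analysed here.

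Genes of the NRF2 pathway and oxidative stress had a median of -0.1 over 12 tested members, which became 0.11 after median centring. Nfe2l2, which encodes NRF2, averaged 131 ± 30.1 in TPPU mice and 177 ± 46.8 in 5xFAD vehicle mice (log2 change -0.43, adjusted p = 0.333). Hmox1, a haem-degrading target of NRF2, averaged 188 ± 31.1 in TPPU mice and 211 ± 58.5 in 5xFAD vehicle mice, with an estimate of -0.13 that was 0.07 after median centring and 0.18 after quantile normalization. The member at an unadjusted p under 0.05 was Ncf1, a subunit of the phagocyte NADPH oxidase (-0.83, SE 0.27, adjusted p = 0.199).

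Neuronal and synaptic genes had a median of 0.08 over 30 tested members, with 2 higher and 0 lower at an unadjusted p under 0.05. After median centring the median was 0.29 with 8 higher and 0 lower, beside 0.08 and 14.1% higher over all tested genes. After quantile normalization it was 0.11 with 3 higher and 0 lower, beside 0.07 and 10.5% higher over all tested genes. Without 5xFAD vehicle mouse 1 the median was 0.01, with 0 higher and 1 lower. The postsynaptic scaffold gene Shank3 stood at 2000, 2319, 1701 and 2086 in TPPU mice, against 1593, 1784, 1509 and 1653 in 5xFAD vehicle mice (log2 change 0.3, SE 0.13, adjusted p = 0.251). TPPU mouse 3 lay within the range of the vehicle mice and the other TPPU mice above it.

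Bdnf, the neurotrophin, stood at 1134, 1165, 943 and 1312 in TPPU mice, against 445, 1002, 605 and 1218 in 5xFAD vehicle mice and 1237 ± 162 in non-transgenic mice (log2 change of TPPU minus vehicle 0.58, SE 0.26, adjusted p = 0.27). It was 1 of 8 tested members of the immediate early list at an unadjusted p under 0.05, and the list median was 0.16, or -0.03 without 5xFAD vehicle mouse 1. The activity genes Arc and Egr1 each had an estimate of 0.22 (adjusted p = 0.807 and 0.775), which was -0.22 and -0.18 without 5xFAD vehicle mouse 1. That mouse had the lowest value of its group in all 8 members of the list, beside 54% of all tested genes. Fos, another activity gene, averaged 1014 ± 660 in TPPU mice and 1046 ± 658 in 5xFAD vehicle mice (adjusted p = 0.931). Homer1, a synaptic scaffold, averaged 6786 ± 2354 in TPPU mice and 5432 ± 1674 in 5xFAD vehicle mice (adjusted p = 0.591).

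Other genes higher at an unadjusted p under 0.05 included Eomes, Atp6v1a, Cd6 and Rtn4rl1. Eomes, a transcription factor of neural progenitors and lymphocytes, read only 40.5, 25.6, 27.3 and 19.6 in TPPU mice, against 11.3, 13.2, 15.5 and 22 in 5xFAD vehicle mice (log2 change 0.82, SE 0.24, adjusted p = 0.169), near the range of the Y-linked probes in mice with low Y-linked counts. Atp6v1a, a subunit of the proton pump that acidifies lysosomes and synaptic vesicles, stood at 12803, 12622, 11248 and 10714 in TPPU mice, against 8872, 11108, 9949 and 9781 in 5xFAD vehicle mice (0.26, SE 0.09, adjusted p = 0.212). Rtn4rl1, a relative of the Nogo receptor, stood at 1326, 1403, 1146 and 1193 in TPPU mice, against 974, 1132, 885 and 967 in 5xFAD vehicle mice, without overlap (0.36, SE 0.16, adjusted p = 0.251). The lymphocyte receptor gene Cd6 averaged 43.1 ± 11.6 in TPPU mice and 28.7 ± 6.87 in 5xFAD vehicle mice (0.55). The other 3 genes with all TPPU mice above all 5xFAD vehicle mice were Amigo2, Bok and Cidea, named after their values were seen, at 0.44, 0.65 and 0.48 with adjusted p values of 0.337 to 0.513. Map2k1 (0.27) and Hdac2 (0.18) had the next smallest p values among higher estimates, with adjusted p values of 0.28 and 0.273.

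Myelin and oligodendrocyte genes had a median of 0.14 over 23 tested members, with 0 higher and 1 lower at an unadjusted p under 0.05. After median centring 4 were higher and 0 lower, with a median of 0.34, beside 14.1% higher and 0.08 over all tested genes. After quantile normalization 5 were higher and 0 lower, with a median of 0.28, beside 10.5% higher and 0.07. Without 5xFAD vehicle mouse 1 the median was -0.05. The gene lower on the deposited scale was Gsn, an actin-severing protein (log2 change -0.34, SE 0.14, adjusted p = 0.222). Mal, which encodes a proteolipid of compact myelin, stood at 5533, 4924, 7300 and 5471 in TPPU mice, against 4291, 6424, 4278 and 6364 in 5xFAD vehicle mice (0.13, SE 0.19, adjusted p = 0.727), with overlapping groups, and Ninj2, a glial adhesion gene, had an estimate of 0.69 (adjusted p = 0.282). The list median differed with Y-linked status. Between the mice with high Y-linked counts its median was -0.17, with 19 of 23 estimates below 0, and between those with low counts it was 0.46, with 1 of 23 below 0. With 2 mice a group in each stratum, the difference between strata was not tested. TPPU mouse 3, with low Y-linked counts, was highest of its group in 22 of the 23 genes, beside 46.8% of all tested genes. TPPU mouse 4, with high Y-linked counts, was lowest in 19, beside 196 of all 695 tested genes. Without TPPU mouse 3 the list median was 0.02. 5xFAD vehicle mouse 1, which had high Ttr, was lowest of its group in 21 of the 23 genes, beside 54% of all tested genes. Mbp was not analysed here.

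Endothelial genes had 0 of 10 tested members past an unadjusted p of 0.05 in either direction and a median of -0.25, with Pecam1 at -0.41 (adjusted p = 0.283). Markers of T, NK and B cells, mast cells and neutrophils were nearly all under the minimum and none was at 0. The 8 markers of T, NK and B cells on the panel summed to 90.7 to 113 in TPPU mice, against 95.5 to 160 in 5xFAD vehicle mice and 74.4 to 100 in non-transgenic mice. Lag3, an inhibitory receptor of T cells that microglia also express, averaged 237 ± 106 in TPPU mice and 375 ± 109 in 5xFAD vehicle mice (log2 change -0.74, adjusted p = 0.251). Cd163, a marker of macrophages at the brain's borders, averaged 39.3 ± 3.71 in TPPU mice and 69.1 ± 33.4 in 5xFAD vehicle mice (-0.65, adjusted p = 0.386). The summed astrocyte markers Aldh1l1, Slc1a3 and S100b ran from 10749 to 12178 in TPPU mice, against 11841 to 16518 in 5xFAD vehicle mice. The part of such differences in the results above was not tested.

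The microglial lists ordered the mice alike within groups. Over the 75 tested genes of 6 lists joined, those of plaque-associated, homeostatic and myeloid identity, complement, Fc receptor and phagocytosis, and SLAM and inhibitory receptor genes, TPPU mouse 2 was lowest of its group in 67 (89.3%) and TPPU mouse 3 highest in 60 (80%). Over all tested genes these shares were 42.3% and 46.8%. 5xFAD vehicle mouse 3 was highest of its group in 57 of the 75 (76%), beside 50.2% over all genes. In the plaque-associated list each of these held in 17 of 17 genes. A score per mouse, averaging over the list the log2 distance from the 5xFAD vehicle mean, was -1.19, -2.51, -0.02 and -0.83 in TPPU mice 1 to 4, against -0.67, 0.09, 0.81 and -0.22 in 5xFAD vehicle mice 1 to 4 and -2.6 to -2.3 in non-transgenic mice. TPPU mouse 2 thus stood with the non-transgenic mice and TPPU mouse 3 with the vehicle mice, and the groups overlapped. For interferon genes the scores were -0.88 to -0.33 in TPPU mice, against -0.19 to 0.13 in 5xFAD vehicle mice, and for antigen presentation -1.55 to -0.42, against -0.30 to 0.22, without overlap in either list.

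**Figure D5:**
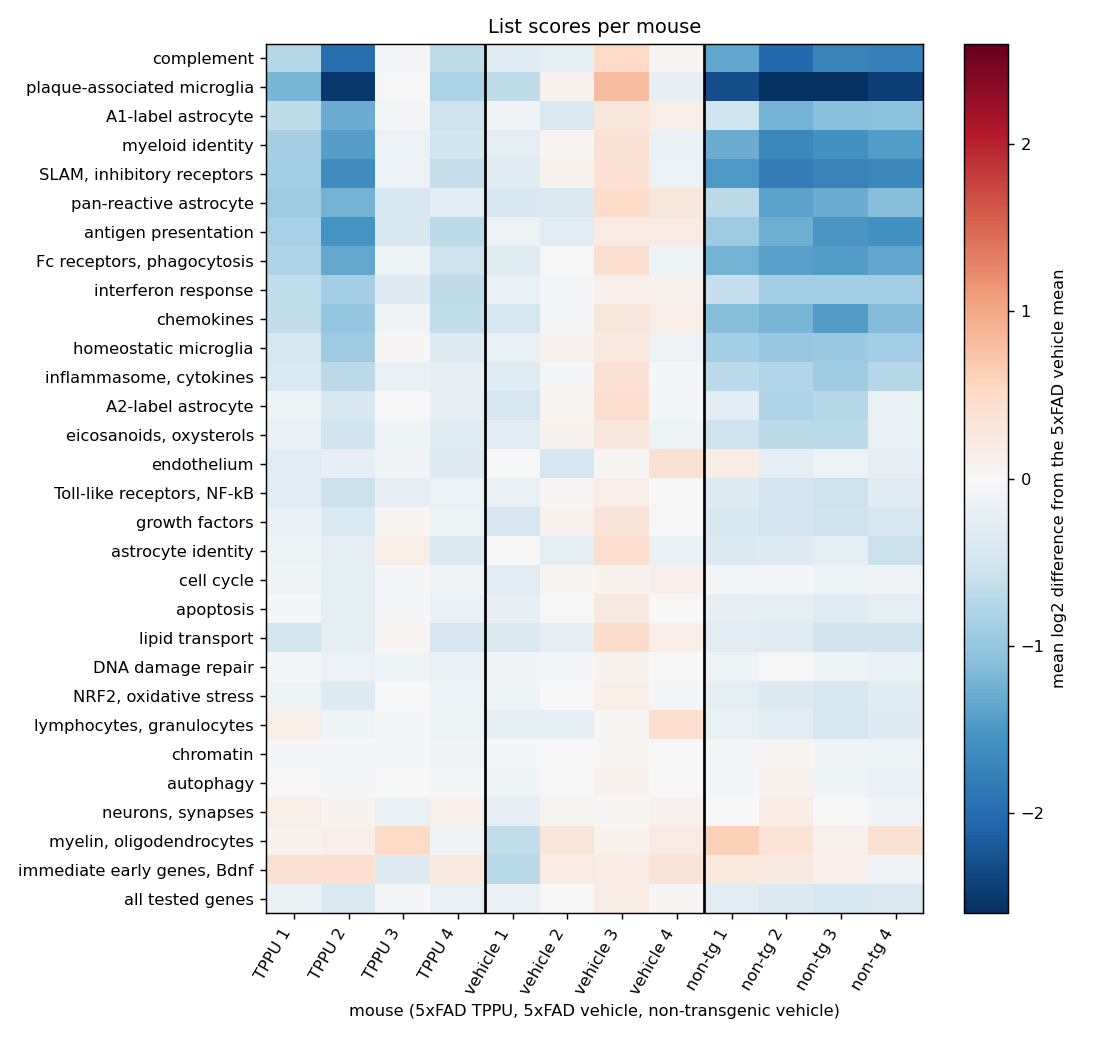
Mean log2 difference of each list's tested members from the 5xFAD vehicle mean (colour) for every mouse (columns, with TPPU, 5xFAD vehicle and non-transgenic mice from left to right) and list (rows). TPPU mouse 2 is as blue as the non-transgenic mice in the plaque-associated row, at -2.51, while TPPU mouse 3 is near white, at -0.02.

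The 5xFAD vehicle mice also served in the genotype comparison, in which limma called 130 genes higher (18.7%) and 0 lower in 5xFAD vehicle than in non-transgenic mice. Since both comparisons share these mice, a chance high value there lowers the first change and raises the second, and their changes are given only side by side. For the plaque-associated list the median log2 changes were -1.03 for TPPU minus vehicle and 2.66 for 5xFAD vehicle minus non-transgenic. For complement they were -1.05 and 1.79, for interferon genes -0.51 and 0.64, and for antigen presentation -0.68 and 1.43. Between TPPU-treated 5xFAD and non-transgenic mice, limma called 0 genes in either direction, with list medians of 1.51, 1.06, 0.17 and 0.34 in the same order.

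The treatment change was also taken within each Y-linked status. The interferon median was -0.76 between mice with high Y-linked counts and -0.2 between mice with low counts, beside -0.2 and -0.06 over all genes. Cxcl10 differed most among the interferon genes named, at -2.39 and -0.04. The plaque-associated medians were -1.17 and -0.89, and those of complement -0.93 and -0.88. Each of these values rests on 2 TPPU and 2 5xFAD vehicle mice.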

How the data were processed

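The authors deposited 1 table of signal values for 12 mice, which per the labels' protocols are nCounter counts scaled by 10 housekeeping genes through their geometric mean. Values of these 10 genes were not used here. The software used, and whether background was subtracted, are not stated in the labels. Dividing each mouse's values by a common step gave whole numbers, to within 0.01, for 100% of values, and these summed to 1050334 to 1314362. Of the 756 symbols, 749 matched current mouse genes in RefSeq and 7 matched as synonyms.

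All 12 mice entered 1 linear model on log2 of the value plus 1, with limma 3.58.1 in R 4.3.3, a prior spread that follows the mean and 9 residual degrees of freedom. Benjamini-Hochberg adjustment ran over all 695 genes with a mean of at least 20, and calls were made at 0.05. Fold changes are on the log2(value + 1) scale, which understates those of low genes. The limma procedure was tested on simulated data. Array medians were compared by an exact two-sided permutation test over 70 arrangements.

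The comparison, gene lists, fixed genes and naming rule were chosen with earlier results of these data known. The rule took the 10 genes with the smallest p per direction, the 2 with the smallest p of each list, and the fixed genes. Every tested gene it took entered the leave-one-out and other settings, except some that are not reported here. Ifitm2, Amigo2, Bok, Cidea, Uty and Kdm5d stand outside it, as do the list members named only to say what a list or marker sum holds. Motifs were searched on both strands of RefSeq promoters of GRCm38.p6. Of the tested panel genes, 547 had a promoter entry.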

Additional observations from a re-analysis of the deposited data

Results flagged for a closer look

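Of 279 groups of 4 mice checked over the named genes, 20 held a mouse whose gap to the nearest of the others was large for the group's range by Dixon's criterion, where chance gives about 1 in 20 groups. In TPPU mice the far values were those of mouse 3 for Cxcl10 (66.7), Ctse (479) and Fancd2, a DNA repair gene (12), of mouse 2 for Nfe2l2 (85.4), of mouse 4 for Hdac2 (2317) and of mouse 1 for Ccng2, a cyclin (1852).

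In 5xFAD vehicle mice they were those of mouse 3 for Tnfrsf1a (704), Casp1 (225), Cd14, the endotoxin co-receptor (322), Vim (3596), Lamp2, a lysosomal membrane protein (5147), and Msr1, a scavenger receptor (109), of mouse 2 for Ccng2 (1728) and of mouse 1 for Ttr (4270). In non-transgenic mice they were those of mouse 1 for C1qa (1186) and the growth factor Tgfb1 (158), of mouse 2 for Ncf1 (77.4), of mouse 3 for Ctse (17.9) and Gsn (1103), and of mouse 4 for Ttr (16461).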

How the results depend on the processing

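At an adjusted p under 0.05, 0 genes were called in either direction on the deposited scale and under the following settings: pseudocounts of 0.1 and 10, no minimum, a minimum mean of 50, median centring, quantile normalization, no trend, a robust prior, only the 5xFAD mice, Y-linked status as a block and voom weights. Without 1 mouse, the count of lower genes ranged from 0 to 39 and that of higher genes from 0 to 0. The 39 came without TPPU mouse 3, and 1 each without TPPU mouse 2 and 5xFAD vehicle mouse 2. The cause was not tested.

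Mouse numbers are shared by the groups, and the correlations of same-numbered TPPU and 5xFAD vehicle mice were -0.21, 0.17, 0.39 and 0.27, so the numbers were not taken as pairs. With mouse number as a replicate block, limma called 0 genes higher and 0 lower, with 8 higher and 124 lower at an unadjusted p under 0.05.

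Directions turned for genes with estimates near 0 or wide spread. C3 was -0.21 without both mice with high Ttr and ran from -0.47 to 0.91 without 1 mouse. Arc was -0.22 without both mice with high Ttr and ran from -0.22 to 0.55, and Egr1 was -0.18 and ran from -0.18 to 0.46. Fos was 0.09 with median centring, 0.07 with quantile normalization, and -0.45 to 0.26 without 1 mouse. Hmox1 was 0.07 with median centring and 0.18 with quantile normalization. Nwd1, an astrocyte gene with an estimate of -0.17, was 0.03 with both scalings, and Esam, an endothelial adhesion gene at -0.24, was 0.04 with quantile normalization. Dot1l, a histone methyltransferase at -0.28, was 0 with it. Median centring joined to only the 5xFAD mice or to the Y-linked block gave the same values as median centring for Hmox1, Fos and Nwd1.

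Median centring also moved list medians to above 0 for lists that lay near 0, among them astrocyte identity (0.02), lipid transport (0.08), oxidative stress (0.11) and apoptosis (0.07). The planned count models, edgeR and DESeq2, were not run. Voom weights on the whole counts were run in their place. These, settings with 2 choices joined and centring with the Y-linked block were added after seeing the data. Low counts, near the Y-linked probes of mice with low Y-linked counts, limit the ratios of genes that include Zbp1, Ccl5, Eomes, Irf7, Cxcl10, Ctse and Fancd2. Group means in or near that range also limit those of Cd6, Ptger3, Nlrp3, Il1b and Ccl2. Slfn8 and C3 are limited through single mice that read within it, and Cst7 and Clec7a through TPPU mouse 2.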

Other observations

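Lists of cell maintenance stood near the median of the panel, -0.12. The DNA damage and repair list had 3 of 39 tested members lower and 0 higher at an unadjusted p under 0.05, with a median log2 change of -0.12. After median centring and after quantile normalization it had 0 lower and 5 higher, beside 14.1% and 10.5% higher over all tested genes. Ddb2, which recognises ultraviolet damage, averaged 112 ± 24.1 normalized counts in TPPU mice and 150 ± 31.3 in 5xFAD vehicle mice (SD, n = 4 each, log2 change -0.42, adjusted p = 0.259 by limma). Fancd2, of the Fanconi anaemia pathway, read 20.2, 21.3, 12 and 21.6 in TPPU mice, against 26.5, 31.4, 23.2 and 37.9 in 5xFAD vehicle mice, without overlap (-0.65, adjusted p = 0.212). These counts lie near those of the Y-linked probes in mice with low Y-linked counts, and how far background sets the ratio was not tested. Cell cycle genes had 1 of 14 lower, the nuclease and helicase Dna2 (-0.53, adjusted p = 0.27), and Ccng2 had an estimate of 0.24 (adjusted p = 0.367).

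Chromatin genes had 2 of 52 lower and a median of -0.08. After median centring they had 0 lower and 7 higher, beside 14.1% higher over all tested genes. Dot1l, which methylates histone H3, stood at 238, 242, 228 and 235 in TPPU mice, against 270, 288, 279 and 307 in 5xFAD vehicle mice and 308 ± 17.1 in non-transgenic mice. The TPPU mice were closely grouped and all lay below the other 8 mice (log2 change of TPPU minus vehicle -0.28, SE 0.09, adjusted p = 0.204), but the estimate was 0 after quantile normalization. The acetyltransferase Ep300 averaged 1498 ± 167 in TPPU mice and 1751 ± 149 in 5xFAD vehicle mice (-0.23, adjusted p = 0.241).

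Apoptosis genes had 2 of 38 lower and a median of -0.13, or 2 lower and 4 higher after median centring, with Casp8, the initiator caspase of death receptors, at -0.61 (adjusted p = 0.212). Autophagy and lysosome genes had 1 of 17 lower, Lamp2 at -0.26 (adjusted p = 0.27), and a median of -0.05, with Atg3, which lipidates LC3, at 0.17 (adjusted p = 0.283). After median centring the autophagy list had 0 lower and 5 higher, and 14.1% of all tested genes were higher. Growth factor genes had 1 higher, Bdnf, and 1 lower, Tgfb1, which averaged 265 ± 114 in TPPU mice and 471 ± 183 in 5xFAD vehicle mice (-0.83, adjusted p = 0.212).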
